A study of Mus musculus with 18 samples.

Results

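The genes of the platelet-derived growth factor (PDGF) system comprised 4 ligand genes (Pdgfa, Pdgfb, Pdgfc and Pdgfd) and 2 receptor genes (Pdgfra and Pdgfrb), taken by symbol as 6 of the 32285 gene identifiers in the deposited count table. They were followed in sorted synovial fibroblasts of the mouse paw, with 18 RNA-seq libraries in 6 groups of 3. All mice carried the wild-type genotype. Naive cells, from mice without arthritis, were kept without stimulation or treated with the fibroblast mitogen FGF2 (fibroblast growth factor 2, 10 ng/mL), with 50 ng/mL osteopontin (OPN, a secreted protein bound by integrins and CD44) or both factors at these doses for 3 days. STIA cells came from mice with serum-transfer-induced arthritis, a joint inflammation caused by serum of K/BxN mice, and were unstimulated or received 50 ng/mL OPN for 3 days. Strain, age, the sorting gates, the culture time of unstimulated cells, and whether replicates came from separate mice or cultures are not stated in the labels, so p-values measure only the spread between these libraries.

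PDGFs are secreted as dimers that bring receptor chains together at the cell surface, and the paired receptor tyrosine kinases then phosphorylate each other and recruit signalling proteins such as PI3 kinase, phospholipase C gamma, Src and the phosphatase SHP2. PDGF-A binds the alpha receptor, PDGF-B binds every receptor pair, PDGF-C acts mainly on the alpha receptor and PDGF-D mainly on the beta receptor. PDGF-A and PDGF-B are trimmed inside the cell by furin-like proteases, whereas PDGF-C and PDGF-D leave the cell with a blocking CUB domain that extracellular proteases remove. Fibroblasts of connective tissue carry both receptors, and PDGF is a mitogen for synovial fibroblasts.

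Library totals ran from 27527043 to 40357342 counts, and all 6 genes had counts in all 18 libraries and were among the 15072 genes tested. All 11 pan-fibroblast markers were detected in every library, the lowest being Fap at 5.1 CPM. CPM here is the count scaled to a common, TMM-normalised library size. The library least like its own group was FGF2 replicate 2, whose log2 CPM differed from the group mean by 0.277 (root mean square), against at most 0.242 in the others. The 6 macrophage markers summed to 11.99 to 13.6 CPM in unstimulated naive libraries, 42.6 to 47.9 CPM with FGF2 and 11.7 to 18.1 CPM in the other groups. With FGF2 most of this was Cd14 (43.8 CPM on average, against 6.03 CPM unstimulated). Of the 3 macrophage markers tested, 1 rose and 2 fell with FGF2, where 29.1% of all genes rose and 28.1% fell. Lyz2 and Csf1r moved against Cd14, their means dropping from 3.86 and 2.92 CPM to 0.576 and 0.479 CPM. Lyz2 stood highest with OPN alone, at a mean of 10.0 CPM and a top library of 11.9 CPM. Ptprc, Adgre1 and C1qa stayed at or below 0.257 CPM in every library. The part of these markers in the FGF2 results was not tested. In bulk RNA a smaller number of expressing cells and less RNA per cell cannot be told apart.

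Levels of different genes were compared in TPM, a share of transcripts in which counts are corrected for the exon length of each gene. In unstimulated naive cells Pdgfrb stood highest at 584.5 ± 17.8 TPM (SD, n = 3), and 1.56% of the genes tested had a higher level. Pdgfra followed at 122.8 ± 4.1 TPM. Among the ligands Pdgfc (44.7 ± 3.1 TPM) and Pdgfd (44.1 ± 5.4 TPM) were close to each other, Pdgfa reached 32.6 ± 2.7 TPM, and Pdgfb was lowest at 6.29 ± 0.83 TPM. The unstimulated naive libraries therefore held transcripts of every ligand and both receptors.

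**Figure D1:**
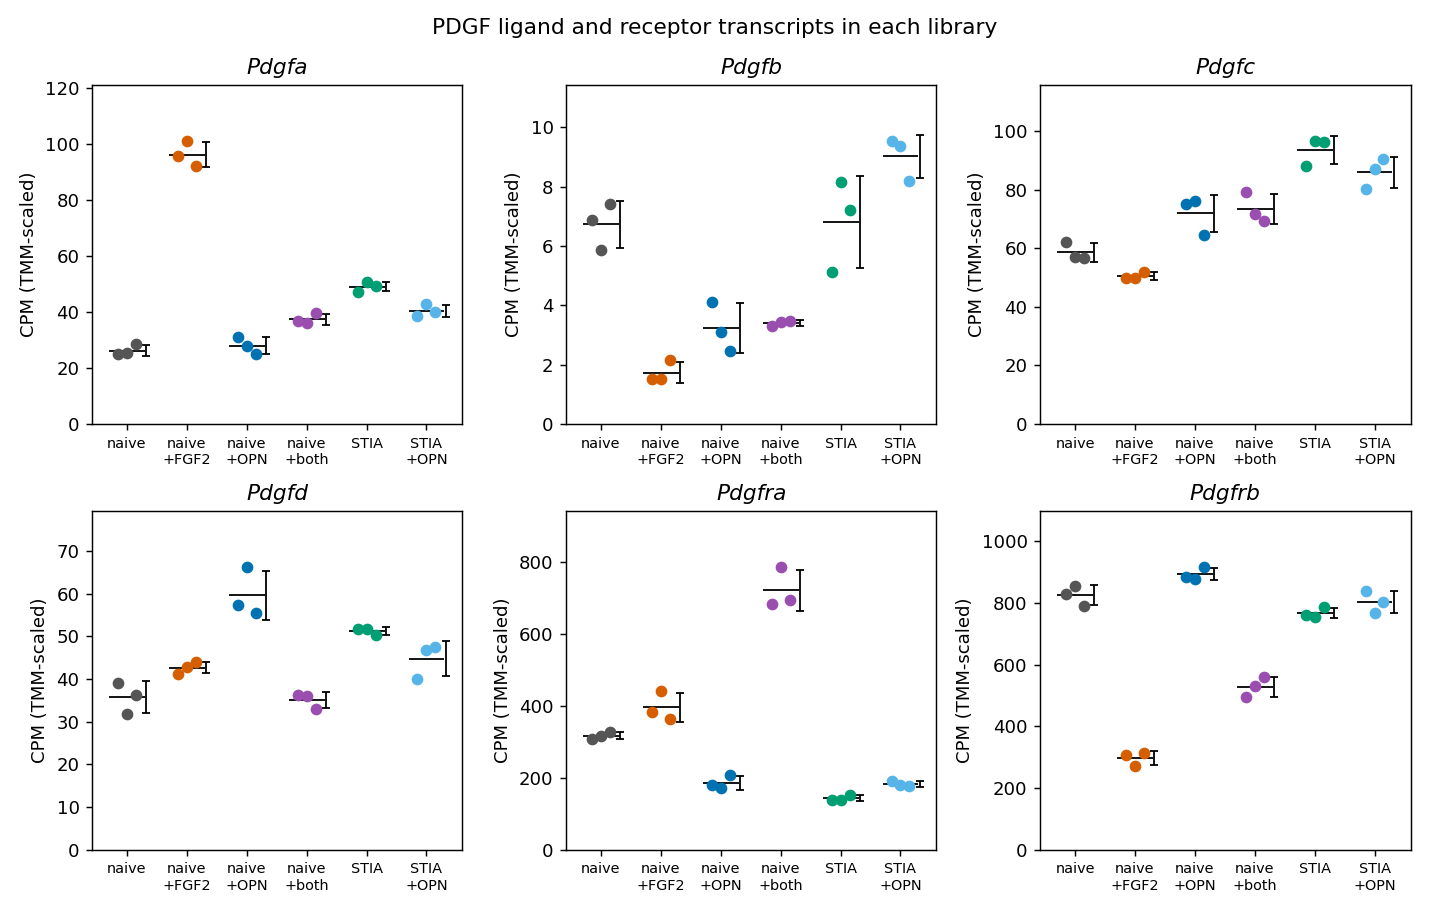
Level of each gene (vertical axes, CPM on TMM-scaled library sizes, each from 0) in the 6 groups (horizontal axes). Points are libraries, lines are means and bars are SD (n = 3). Pdgfa stands highest with FGF2 (91.9 to 100.8 CPM), and Pdgfra stands highest with both factors (684.5 to 786.4 CPM).

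Pdgfa (ENSMUSG00000025856; GRCm38 chromosome 5, 138976014 to 138997370, minus strand) encodes the A chain. Unstimulated naive libraries held 24.9, 25.2 and 28.5 CPM, and FGF2 libraries held 95.7, 100.8 and 91.9 CPM. Every FGF2 library lay far above every unstimulated one, a log2 fold change of 1.87 ± 0.08 (SE; adjusted p = 1.86e-15 in the edgeR quasi-likelihood test). OPN alone left 31.1, 27.9 and 24.9 CPM and overlapped the unstimulated libraries (log2 fold change 0.10 ± 0.08, adjusted p = 0.372). With both factors the libraries held 36.7, 35.9 and 39.6 CPM, above unstimulated cells (0.51 ± 0.08 on the log2 scale) and well below FGF2 alone (-1.36 ± 0.07, adjusted p = 7.02e-13). STIA libraries held 47.2, 50.6 and 49.3 CPM, all above the naive ones (0.90 ± 0.08, adjusted p = 1.3e-08). OPN-treated STIA libraries held 38.6, 42.8 and 39.9 CPM, lower than untreated STIA cells without overlap, but the difference missed the threshold (-0.28 ± 0.08, adjusted p = 0.0564). It passed under 5 other settings, DESeq2 among them (adjusted p = 0.014). With 1 replicate left out it never passed (edgeR adjusted p from 0.11 to 0.226).

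An antisense gene, 6330403L08Rik, shares 813 exon bases with Pdgfa, and no source used here gives the strand setting of the counting, so reads of the pair cannot be told apart in the shared stretch. The antisense gene averaged 10.9 ± 0.6 CPM without FGF2 and 22.1 ± 1.6 CPM with it in naive cells (SD, n = 3). Its log2 fold change was 1.02 ± 0.12, smaller than that of Pdgfa. The 4 other overlapping genes for which the table gave counts, 1 each at Pdgfb, Pdgfc, Pdgfd and Pdgfra, had at most 5 counts in any library.

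The RefSeq promoter table (build GRCm38.p6) was read for Pdgfa and Pdgfra, the 2 genes that varied most between groups among members with an entry. It held 4 of the 6 members, and the 250 bases before the annotated start site are printed here 5′ to 3′ on the gene's strand, at chr5:138994945-138995194 (minus strand) for Pdgfa and chr5:75152001-75152250 (plus strand) for Pdgfra. The Pdgfa stretch lies within the counted gene, whose 5′ end is at 138997370, so it precedes an internal start site. Capitals mark matches to the GC box.
Pdgfa: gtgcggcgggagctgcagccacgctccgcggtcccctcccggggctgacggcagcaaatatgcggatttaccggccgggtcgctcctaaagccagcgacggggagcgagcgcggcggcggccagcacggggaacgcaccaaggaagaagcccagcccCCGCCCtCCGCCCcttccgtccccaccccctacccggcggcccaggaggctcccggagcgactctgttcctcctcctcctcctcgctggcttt
Pdgfra: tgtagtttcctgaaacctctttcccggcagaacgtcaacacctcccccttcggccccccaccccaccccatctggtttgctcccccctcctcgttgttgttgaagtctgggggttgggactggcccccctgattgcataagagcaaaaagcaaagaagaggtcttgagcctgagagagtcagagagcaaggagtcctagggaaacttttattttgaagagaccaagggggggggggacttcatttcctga

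The search covered both strands of windows running from 250 bases before to 50 after the start site, for the GC box GGGCGG, the EGR1 site GCGGGGGCG, the AP-1 site TGANTCA, the cAMP response element TGACGTCA and the TATA box TATAAA. The Pdgfa window (73.3% G and C) held 2 GC boxes, which do not overlap, starting at positions -93 and -86, both on the opposite strand. A downstream RefSeq window of Pdgfa held 1 at -60. The Pdgfra window (51% G and C) held none of the 5 motifs, the Pdgfc window likewise none, and the Pdgfd window held a TATA box at -160 only. Of all 32851 promoters 35.7% held a GC box, 2.91% the EGR1 site, 7.81% the AP-1 site, 1.79% the cAMP response element and 13.6% the TATA box. These are matches of letters, not measured binding sites.

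Pdgfb (ENSMUSG00000000489; chromosome 15, 79995874 to 80014977, minus strand) encodes the B chain, the ligand of every receptor pair. Unstimulated naive libraries held 6.88, 5.88 and 7.43 CPM. FGF2 libraries held 1.53, 1.52 and 2.15 CPM, all below them (log2 fold change -1.95 ± 0.20, adjusted p = 1.31e-08). OPN libraries held 4.12, 3.12 and 2.48 CPM (-1.04 ± 0.18, adjusted p = 0.000141). Each factor alone thus went with less Pdgfb in naive cells. Both factors together gave 3.29, 3.42 and 3.48 CPM, below unstimulated cells (-0.99 ± 0.18, adjusted p = 9.29e-05) and above FGF2 alone (0.96 ± 0.21, adjusted p = 0.000396). STIA libraries spread widely at 5.12, 8.15 and 7.21 CPM around the naive level (0.01 ± 0.17, adjusted p = 0.971). OPN-treated STIA libraries held 9.53, 9.36 and 8.19 CPM, all above untreated STIA cells, a difference that did not pass the test (0.41 ± 0.17, adjusted p = 0.254). Pdgfb rested on the fewest counts, 2920 over all libraries, and its SE was the largest of the 6.

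Platelets and endothelium are known sources of PDGF-B, and their markers were read beside it. The 5 platelet markers summed to 12.5 to 16.7 CPM in unstimulated naive libraries and 4.94 to 5.53 CPM with FGF2, and 2 of the 5 (Ppbp and Itga2b) carried nearly all of it. Pf4, Gp1bb and Gp9 stood at or below 0.146 CPM in every library. Ppbp averaged 6.68 CPM in unstimulated naive cells, 0.814 with FGF2, 3.06 with OPN, 2.81 with both, 9.37 in STIA cells and 10.1 in OPN-treated STIA cells. Itga2b ran in another order, at 8.05, 4.33, 5.20, 9.62, 4.84 and 5.55 CPM in the same groups. The 7 endothelial markers summed to 11.2 to 13.5 CPM in unstimulated naive libraries, 14.7 to 15.3 CPM with FGF2 and 7.15 to 7.58 CPM with both factors. Within that sum the markers moved in opposite directions with FGF2, 3 higher and 1 lower of the 5 tested, where 29.1% of all genes were higher and 28.1% lower. Tek averaged 9.78 CPM without and 1.11 CPM with FGF2, Kdr 1.03 and 9.08 CPM, and Cdh5 0.727 and 3.49 CPM. Pecam1, Emcn and Tie1 stood at or below 0.515 CPM in every library. The part of these markers in the Pdgfb result was not tested.

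Pdgfc (ENSMUSG00000028019; chromosome 3, 81036416 to 81214040, plus strand) encodes a ligand that is secreted latent. It held 62.3, 56.9 and 56.7 CPM in unstimulated naive libraries and 49.7, 49.7 and 52.1 CPM with FGF2. The small fall passed the test (log2 fold change -0.22 ± 0.07, adjusted p = 0.0129), but not with library totals alone (-0.14, adjusted p = 0.142) or without unstimulated naive replicate 1 (-0.17, adjusted p = 0.0749). OPN libraries held 75.0, 76.1 and 64.6 CPM, all higher than unstimulated ones (0.30 ± 0.07, adjusted p = 0.00276). Libraries with both factors held 79.1, 71.7 and 69.3 CPM (0.32 ± 0.07, adjusted p = 0.000591) and overlapped those with OPN alone. The highest levels were in STIA cells, at 88.0, 96.5 and 96.3 CPM (0.67 ± 0.07, adjusted p = 2.04e-07). With OPN the STIA libraries held 80.2, 87.2 and 90.6 CPM and overlapped the untreated ones (-0.12 ± 0.07, adjusted p = 0.449).

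Pdgfd (ENSMUSG00000032006; chromosome 9, 6168584 to 6378850, plus strand) encodes the other latent ligand, which acts on the beta receptor. It held 39.2, 31.9 and 36.2 CPM in unstimulated naive libraries. With OPN it held 57.4, 66.2 and 55.5 CPM, the highest of the 6 groups (log2 fold change 0.74 ± 0.08, adjusted p = 5.15e-07). FGF2 libraries held 41.3, 42.9 and 43.9 CPM, slightly above unstimulated cells (0.25 ± 0.08, adjusted p = 0.0105), a call lost without unstimulated naive replicate 2 (0.18, adjusted p = 0.0843). Libraries with both factors, at 36.4, 36.1 and 32.9 CPM, lay among the unstimulated ones (-0.03 ± 0.08, adjusted p = 0.813) and below OPN alone (-0.76 ± 0.08, adjusted p = 4.53e-08). STIA libraries held 51.7, 51.8 and 50.3 CPM, all above naive ones (0.52 ± 0.08, adjusted p = 3.58e-05). OPN-treated STIA libraries, at 40.1, 46.8 and 47.4 CPM, were all lower than untreated STIA cells without passing the test (-0.19 ± 0.08, adjusted p = 0.259).

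**Figure D2:**
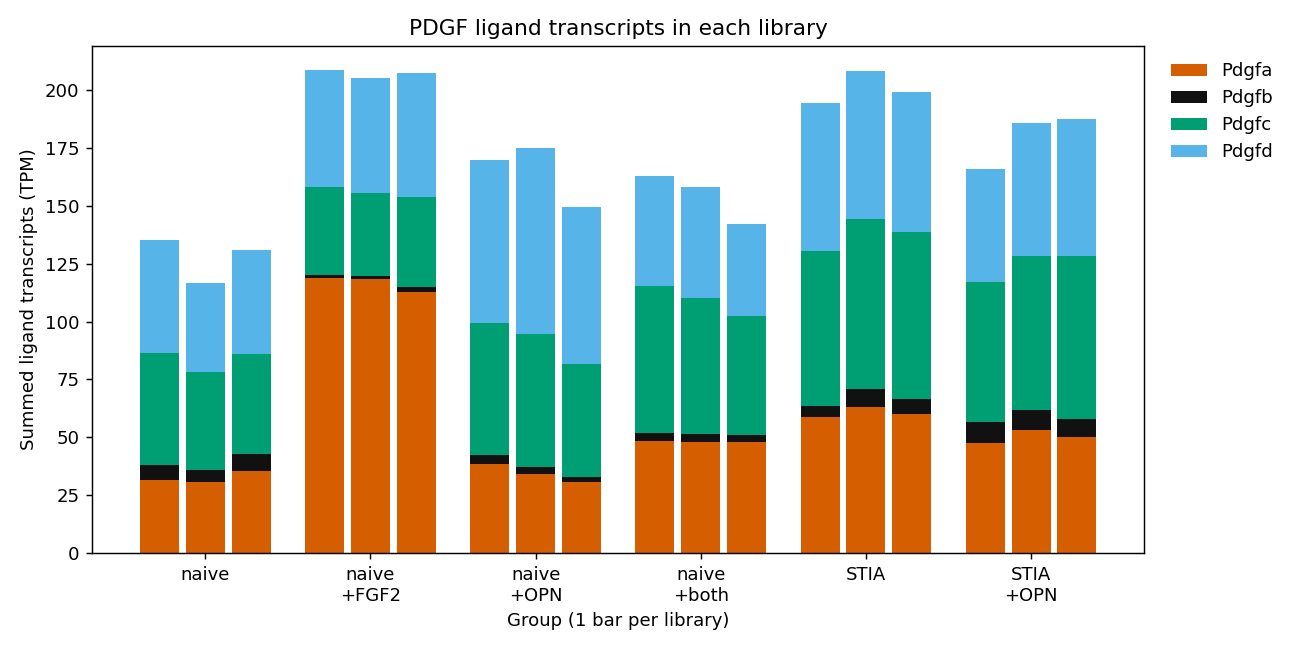
Ligand transcripts in TPM (vertical axis, from 0) in every library (1 bar each, horizontal axis by group), stacked by gene. The FGF2 bars reach 205.3 to 208.5 TPM, with Pdgfa the largest share (54.4% to 57.7%), and unstimulated naive bars reach 116.7 to 135.4 TPM.

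The make-up of the ligand pool changed with these shifts. In unstimulated naive cells Pdgfc made up 35.1 ± 1.6% of the summed ligand TPM, Pdgfd 34.4 ± 1.7%, Pdgfa 25.6 ± 2.1% and Pdgfb 4.91 ± 0.37% (SD, n = 3). With FGF2 the share of Pdgfa was 56.3 ± 1.7% and that of Pdgfb 0.763 ± 0.166%. With OPN the largest share was that of Pdgfd, 44.2 ± 2.5%, but by counts without length correction Pdgfc was larger (44.2%) than Pdgfd (36.7%). With both factors, in STIA cells and in OPN-treated STIA cells Pdgfc was largest, at 37.5 ± 1.5%, 35.4 ± 0.8% and 36.5 ± 0.8%. Summed ligand transcripts averaged 127.7 ± 9.8 TPM in unstimulated naive cells, 207.1 ± 1.6 with FGF2 and 200.6 ± 7.1 in STIA cells. These shares are descriptions without a test.

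Pdgfra (ENSMUSG00000029231; chromosome 5, 75152292 to 75198215, plus strand) encodes the alpha receptor and had the widest range of group means among the receptors, 5.03-fold. Unstimulated naive libraries held 308.5, 316.1 and 327.4 CPM and FGF2 libraries 382.5, 442.7 and 363.9 CPM, all higher (log2 fold change 0.32 ± 0.08, adjusted p = 0.00139). FGF2 replicate 2, the library that stood apart, was the highest of the 3, and without it the change was 0.23 (adjusted p = 0.0132). OPN libraries held 179.2, 170.9 and 208.0 CPM, all lower than unstimulated cells (-0.77 ± 0.08, adjusted p = 2.51e-07). In naive cells OPN thus went with less Pdgfra when given alone. When both factors were given the libraries held 684.5, 786.4 and 694.2 CPM, the highest levels of all (1.19 ± 0.08 against unstimulated cells, adjusted p = 5.47e-11; 0.86 ± 0.08 against FGF2, adjusted p = 3.59e-09). STIA libraries held the lowest levels, 137.6, 139.5 and 153.6 CPM (-1.14 ± 0.08, adjusted p = 8.38e-10). OPN-treated STIA libraries held 192.8, 179.9 and 178.1 CPM, all higher than untreated STIA cells (0.35 ± 0.08, adjusted p = 0.0241). That call was lost when any 1 of the 6 libraries was left out except STIA replicate 3, with adjusted p from 0.0533 to 0.146 and changes from 0.32 to 0.38.

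Pdgfrb (ENSMUSG00000024620; chromosome 18, 61045150 to 61085061, plus strand) encodes the beta receptor. Unstimulated naive libraries held 829.3, 855.7 and 791.8 CPM and FGF2 libraries 306.9, 272.3 and 314.1 CPM, so that all FGF2 libraries lay far below (log2 fold change -1.47 ± 0.07, adjusted p = 6.34e-15). OPN libraries held 885.5, 878.1 and 916.1 CPM, each above the unstimulated libraries, a difference that did not pass the test (0.11 ± 0.06, adjusted p = 0.183). With both factors they held 494.4, 530.4 and 558.8 CPM, between unstimulated cells (-0.65 ± 0.06, adjusted p = 2.42e-08) and FGF2 alone (0.83 ± 0.06, adjusted p = 2.48e-10). Neither STIA nor OPN in STIA cells moved Pdgfrb past the threshold. STIA libraries held 759.8, 754.4 and 785.8 CPM, all under the naive ones (-0.11 ± 0.06, adjusted p = 0.2). OPN-treated STIA libraries held 839.2, 767.0 and 803.1 CPM and overlapped both (0.07 ± 0.06 against STIA, adjusted p = 0.697).

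Markers of fibroblasts and of pericytes, which also carry the beta receptor, were read beside Pdgfrb. The 11 pan-fibroblast markers summed to 68260 to 77570 CPM in unstimulated naive libraries. The sums were 21120 to 23070 CPM with FGF2 and 27720 to 33520 CPM with both factors. Type I collagen made up most of the unstimulated sum. Col1a1 averaged 36970 CPM in unstimulated naive cells, 4067 CPM with FGF2 and 8068 CPM with both. Of the 11, 4 rose and 4 fell with FGF2, where 29.1% of all genes rose and 28.1% fell. With both factors 7 of the 11 rose and 3 fell, where 23.7% of all genes rose and 26.1% fell. The 8 pericyte and smooth muscle markers summed to 313.6 to 330.9 CPM in unstimulated naive libraries. They summed to 261.3 to 365.2 CPM with FGF2 and 228.5 to 245.2 CPM with both, most of it Cspg4. Of the 8, 1 rose and 6 fell with FGF2, against the shares of all genes given for FGF2. The 1 that rose was Rgs5, a defining pericyte gene, at 2.23 CPM in unstimulated cells, 41.1 CPM with FGF2 and 38.4 CPM with both. With both factors 3 of the 8 rose and 3 fell, where 23.7% of all genes rose and 26.1% fell. Abcc9 averaged 1.56 CPM in unstimulated naive cells, 0.358 CPM with FGF2 and 8.065 CPM with both. Kcnj8 averaged 0.240, 0.0552 and 1.60 CPM in the same groups and stayed at or below 1.8 CPM in every library. The part of these markers in the Pdgfrb result was not tested.

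The order of levels across groups differed between genes. For Pdgfa, FGF2, STIA, OPN-treated STIA, both factors, OPN and unstimulated naive cells followed each other from high to low, and among neighbours only both factors with OPN-treated STIA cells, and OPN with unstimulated naive cells, overlapped. Pdgfb ran from OPN-treated STIA cells down to FGF2, a 5.2-fold range, with overlap between STIA and unstimulated naive cells and between both factors and OPN. For Pdgfc the STIA groups overlapped each other at the top and FGF2 lay lowest, a 1.85-fold range. Pdgfd had the smallest range, 1.7-fold, with overlaps between FGF2 and OPN-treated STIA cells and between unstimulated naive cells and both factors. For Pdgfra only OPN-treated STIA and OPN-treated naive cells overlapped as neighbours. For Pdgfrb the STIA groups and unstimulated naive cells overlapped in a chain, and the range was 3.0-fold.

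**Figure D3:**
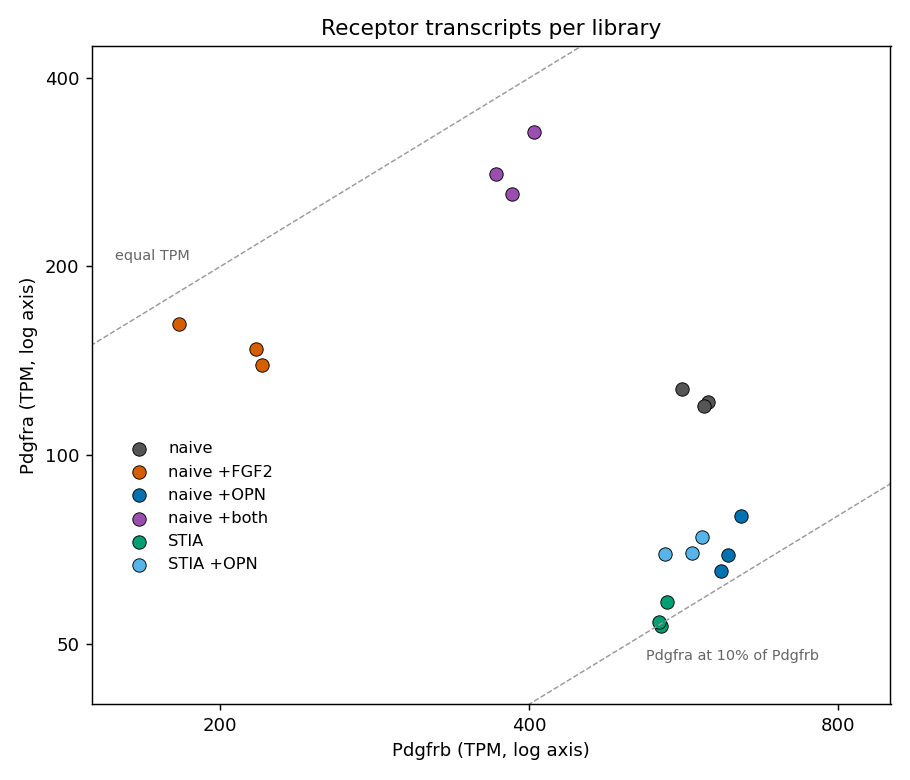
Pdgfra against Pdgfrb in TPM (both axes logarithmic), 1 point per library and 1 colour per group, with dashed lines at equal TPM and at Pdgfra equal to 10% of Pdgfrb. FGF2 libraries lie to the left and those with both factors at the top, near the line of equal TPM, and STIA libraries lie lowest.

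The balance of the receptors was read as the ratio of Pdgfra to Pdgfrb in TPM within each library, which does not depend on library scaling. It was 0.203, 0.202 and 0.226 in unstimulated naive libraries, 0.681, 0.888 and 0.633 with FGF2, and 0.757, 0.810 and 0.679 with both factors. OPN gave 0.111, 0.106 and 0.124, STIA 0.099, 0.101 and 0.107, and OPN-treated STIA cells 0.126, 0.128 and 0.121. In TPM beta receptor transcripts exceeded alpha receptor transcripts in all 18 libraries, by the least in the 6 libraries given FGF2. This order rests on the length correction, with 10024 exon bases for Pdgfra and 5478 for Pdgfrb. In CPM Pdgfra stood above Pdgfrb in all 6 libraries given FGF2. The means were 396.4 against 297.8 CPM with FGF2 and 721.7 against 527.9 CPM with both factors. The mean log2 ratio differed from unstimulated naive cells by 1.79 with FGF2, -0.89 with OPN, 1.83 with both factors and -1.04 in STIA cells. It differed by 0.29 between OPN-treated and untreated STIA cells and by 2.72 between both factors and OPN. None of these pairs of groups overlapped, and each gave p = 0.1 in a two-sided exact permutation test, the smallest p that 3 against 3 libraries allow (0.117 after adjustment over 7 pairs). Both factors and FGF2 alone overlapped (difference 0.04, exact permutation p = 0.9). The similar ratios came from different sums, since receptor transcripts added up to 355.6 ± 10.6 TPM with FGF2 and 676.9 ± 48.0 TPM with both, against 707.3 ± 14.0 TPM in unstimulated naive cells (SD, n = 3).

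**Figure D4:**
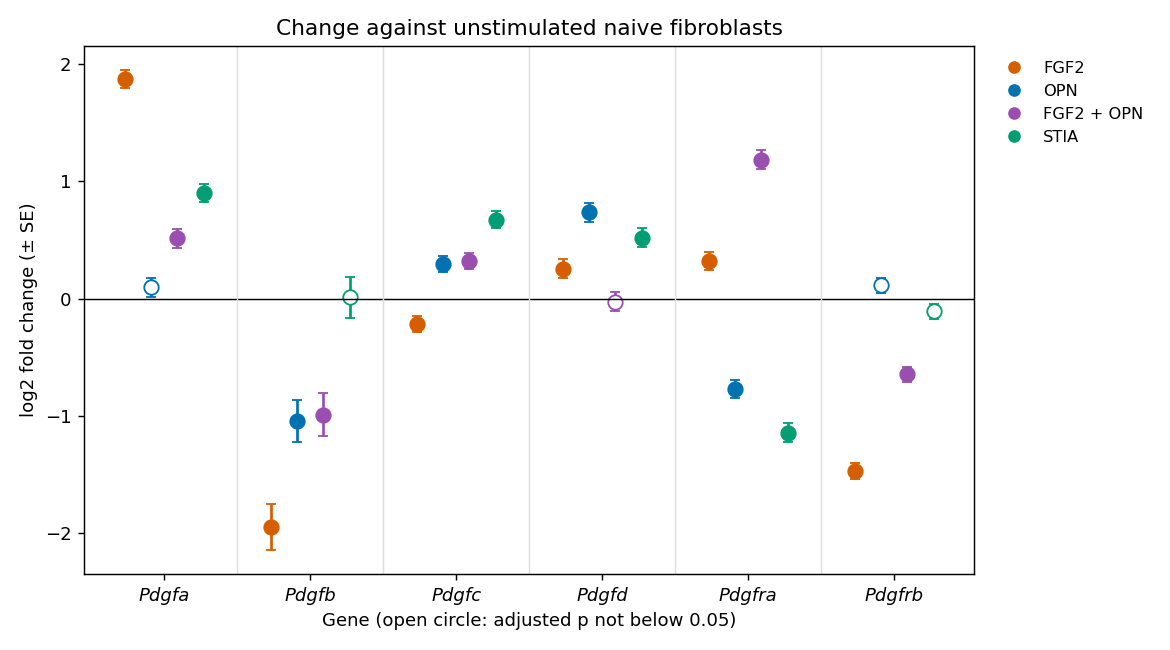
Log2 fold change against unstimulated naive cells (vertical axis, points ± SE) for each gene (horizontal axis) with FGF2, OPN, both factors and in STIA cells. Filled points passed an adjusted p of 0.05 and open points did not. Pdgfra lies above 0 with FGF2 (0.32) and both factors (1.19) and below 0 with OPN (-0.77) and in STIA cells (-1.14).

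FGF2 was set against no stimulation to show its effect alone. All 6 members passed the test, 3 higher (Pdgfa, Pdgfd, Pdgfra) and 3 lower (Pdgfb, Pdgfc, Pdgfrb), where 57.1% of all genes tested passed, 29.1% higher and 28.1% lower. All 6 also separated the libraries of both groups without overlap, as did 61.3% of all genes. Larger absolute changes than that of Pdgfa were found for 10.2% of genes and larger than that of Pdgfrb for 14.2%, whereas Pdgfra, Pdgfd and Pdgfc were exceeded by 53.5%, 61.3% and 66.2%. Of 11 genes for ligand processing and binding 2 rose and 5 fell. Pcsk5 (log2 fold change -3.86 ± 0.27) and Pcsk6 (-2.16 ± 0.15) encode furin-like proteases, and Sparc (-1.28 ± 0.10) a matrix protein that binds PDGF. Of 16 receptor signal transducers 5 rose and 6 fell, among them Rasa1, the Ras GTPase-activating protein (2.25 ± 0.09), Stat5a (-1.35 ± 0.07) and Pik3r1, a regulatory PI3 kinase subunit (-0.93 ± 0.08). Of 10 genes that restrain the receptors 7 rose and 2 fell: the ubiquitin ligase Cblb rose (0.70 ± 0.06) and the phosphatases Ptpn1 (-0.48 ± 0.06) and Ptpn2 (-0.48 ± 0.07) fell. Of 12 early genes that PDGF induces in fibroblasts 3 rose and 8 fell, among them the chemokines Ccl2 (2.44 ± 0.20) and Cxcl1 (-2.33 ± 0.17) and the AP-1 subunit Fosl1 (1.67 ± 0.14). The list medians were -0.18, -0.02, 0.27 and -0.60, beside 0.01 over all genes tested.

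OPN alone was set against no stimulation in the same way. Of the 6 members 4 passed, Pdgfc and Pdgfd higher and Pdgfb and Pdgfra lower, where 31.7% of all genes passed, 15.2% higher and 16.5% lower. The libraries of both groups did not overlap for 5 members and for 46.4% of all genes. Larger absolute changes than those of Pdgfb, Pdgfra and Pdgfd were found for 5.59%, 9.73% and 10.5% of genes. Of the 11 processing and binding genes 2 rose and 5 fell, with Plau, the urokinase protease, at -1.59 ± 0.12, Pcsk5 at -0.59 ± 0.21 and Pcsk6 at 0.63 ± 0.14. Of the 16 transducers 2 rose and 6 fell, by little: Stat5a fell by 0.51 ± 0.07, Stat3 fell by 0.30 ± 0.06 and the adaptor Nck1 rose by 0.28 ± 0.08. Of the 10 restraining genes 1 rose (Cav1, caveolin, 0.53 ± 0.07) and 4 fell, with Slc9a3r1, a scaffold protein, at -0.64 ± 0.08 and Ptpn1 at -0.52 ± 0.06. Of the 12 early genes none rose and 10 fell, with a list median of -1.12. The medians of the processing, transducer and restraining lists were -0.143, -0.070 and -0.077, beside 0.004 over all genes tested. Fos fell by 3.72 ± 0.10, from 315.7 to 23.9 CPM, Fosb fell by 3.53 ± 0.29, from 148.5 to 12.9 CPM, and Cxcl1 fell by 2.46 ± 0.17, from 46.7 to 8.53 CPM.

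Both factors were then set against no stimulation, against each factor alone, and against the sum of the single effects. The comparisons share libraries, and those with unstimulated naive cells share all 3 of these controls. Against unstimulated cells 5 of 6 members passed, 3 higher and 2 lower, where 49.8% of all genes did, 23.7% higher and 26.1% lower. The libraries did not overlap for 5 members and 54.1% of all genes. Against FGF2 alone all 6 passed, 4 higher and 2 lower, where 58.4% of all genes did (27.3% higher, 31.2% lower), and no member overlapped (60.3% of all genes did not). Against OPN alone 4 passed, 2 higher and 2 lower, where 56.5% of all genes did (27.1% higher, 29.5% lower), and 4 did not overlap (60.2% of all genes). Larger absolute changes than the rise of Pdgfra over OPN alone (1.96 ± 0.08, adjusted p = 2.1e-14) were found for 3.83% of genes. The interaction, the log2 change with both factors less the sum of the single changes, passed for all 6 members, where 51.2% of all genes passed, 24.1% positive and 27.2% negative. It was positive for Pdgfb (2.00 ± 0.27, adjusted p = 2.48e-06), Pdgfra (1.64 ± 0.11, adjusted p = 5.81e-11), Pdgfrb (0.71 ± 0.09, adjusted p = 8.63e-07) and Pdgfc (0.24 ± 0.10, adjusted p = 0.0461). It was negative for Pdgfa (-1.46 ± 0.11, adjusted p = 1.84e-10) and Pdgfd (-1.02 ± 0.11, adjusted p = 1.45e-07). Pdgfa and Pdgfd thus lay below the sum of the single log2 changes, and the other 4 above it. The call for Pdgfc was lost in 3 single settings (adjusted p = 0.0847 with no filter, 0.0591 with a replicate block and 0.052 with limma-voom) and in 5 of the 12 leave-outs, FGF2 replicate 2 among them (0.23, adjusted p = 0.0706).

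With both factors the pathway genes split in both directions, where 23.7% of all genes rose and 26.1% fell against unstimulated cells. Of the 11 processing and binding genes 2 rose and 4 fell against unstimulated cells, including Pcsk6 (-1.93 ± 0.15), Sparc (-1.18 ± 0.10) and Furin, the convertase of PDGF-A and PDGF-B (0.47 ± 0.06). Of the 16 transducers 3 rose and 5 fell, with the PI3 kinase subunit gene Pik3cb at -0.75 ± 0.10, the adaptor gene Shc1 at 0.50 ± 0.05 and Ptpn11, the gene of SHP2, at -0.36 ± 0.06. Of the 10 restraining genes 3 rose and 3 fell, with the related scaffold genes Slc9a3r2 at 0.72 ± 0.09 and Slc9a3r1 at -0.72 ± 0.08. Of the 12 early genes 5 rose and 4 fell, with Cxcl1 at -1.59 ± 0.16 and Myc at -1.06 ± 0.12. The medians of these 4 lists were -0.291, -0.004, -0.032 and 0.165, beside -0.008 over all genes tested. Against OPN alone 10 of the 12 early genes rose and 1 fell, where 27.1% of all genes rose and 29.5% fell. Fos stood at 4.05 ± 0.10, Fosb at 3.75 ± 0.29 and Egr1, a zinc finger factor, at 2.39 ± 0.06. Against unstimulated cells Fos stood at only 0.33 ± 0.09, Fosb at 0.22 ± 0.25 and Egr1 at 0.11 ± 0.05. Of these 3 only Fos passed that test.

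STIA cells were set against naive cells, both unstimulated, to show what differed with arthritis in the donor mice. Of the 6 members 4 passed, Pdgfa, Pdgfc and Pdgfd higher and Pdgfra lower, where 36.8% of all genes passed, 18.6% higher and 18.2% lower. The libraries did not overlap for 5 members and 50.5% of all genes. Larger absolute changes than that of Pdgfra were found for 5.96% of genes and larger than that of Pdgfa for 9.43%. Of the 11 processing and binding genes 2 rose and 2 fell, with Pcsk5 at -0.79 ± 0.21 and Nrp1, a PDGF-binding co-receptor, at 0.28 ± 0.07. Of the 16 transducers 5 rose and 7 fell, with Stat5a at -0.79 ± 0.07 and Pik3cb at 0.76 ± 0.09. Of the 10 restraining genes 6 rose and 3 fell, with Cav1 at 0.50 ± 0.07 and Slc9a3r1 at -0.46 ± 0.08. Of the 12 early genes 3 rose and 3 fell, with Cxcl1 at -0.87 ± 0.16, Fosl1 at 0.76 ± 0.15 and Has2, a hyaluronan synthase, at 0.50 ± 0.13. The medians of these 4 lists were -0.241, -0.039, 0.239 and -0.002, beside -0.010 over all genes tested. The 4 skeletal muscle markers summed to 58.8 to 75.4 CPM in STIA libraries and 6.09 to 8.36 CPM in naive ones. Nearly all of this was Acta1, with 1 of the 2 tested markers higher and Ckm at or below 0.0991 CPM in every library, and its part in the result was not tested.

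**Figure D5:**
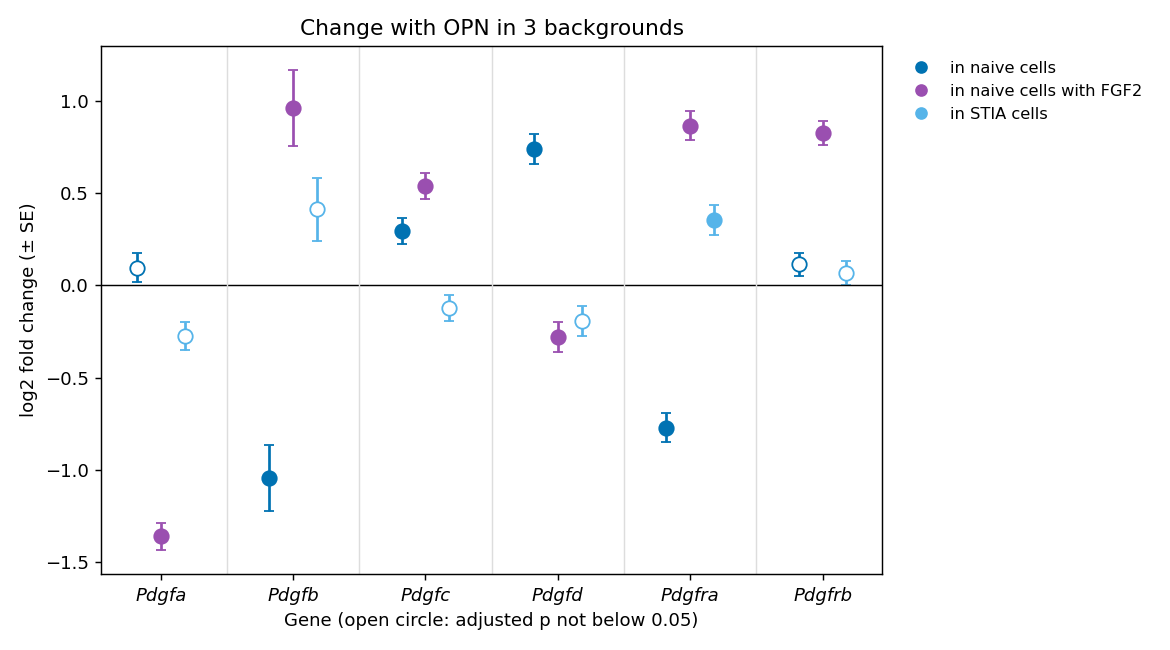
Log2 fold change with OPN (vertical axis, points ± SE) for each gene (horizontal axis) in naive cells, in naive cells that also received FGF2, and in STIA cells. Filled points passed an adjusted p of 0.05. Pdgfra lies at -0.77 in naive cells, 0.86 with FGF2 and 0.35 in STIA cells.

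OPN in STIA cells was set against no stimulation, and its effect against that in naive cells. Of the 6 members only Pdgfra passed in STIA cells, where 2.17% of all genes passed, 1.15% higher and 1.02% lower. The libraries did not overlap for 4 members and 25.4% of all genes. Of the 16 transducers 1 fell (Src, -0.23 ± 0.05), of the 12 early genes 1 rose (Cxcl1, 0.66 ± 0.16), and no gene of the processing or restraining lists passed, with list medians from 0.028 to 0.042 beside 0.004 over all genes tested. The 4 skeletal muscle markers summed to 58.8 to 75.4 CPM in untreated and 23.7 to 27.7 CPM in OPN-treated STIA libraries, with Acta1 the 1 of 2 tested that fell (65.3 to 25.7 CPM), and its part in the result was not tested. The difference of the OPN effects, STIA less naive, passed for 5 of 6 members, where 22.3% of all genes passed, 11.8% positive and 10.5% negative. It was 1.45 ± 0.25 for Pdgfb (adjusted p = 0.000185), 1.13 ± 0.11 for Pdgfra (adjusted p = 3.78e-07), -0.93 ± 0.11 for Pdgfd (adjusted p = 4.47e-06), -0.42 ± 0.10 for Pdgfc (adjusted p = 0.00373) and -0.37 ± 0.11 for Pdgfa (adjusted p = 0.0158). For Pdgfrb it was -0.05 ± 0.09 (adjusted p = 0.763). The call for Pdgfa was lost without OPN-treated naive replicate 1 (-0.29, adjusted p = 0.0663). Of the 12 early genes 9 had a positive difference and none a negative one. These 9 fell with OPN in naive cells, whereas Fos, for example, stood at 276.0 CPM in untreated and 255.6 CPM in OPN-treated STIA cells (log2 fold change -0.11 ± 0.09, adjusted p = 0.638).

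The genes most like each member over the 18 libraries were found by Pearson's r of log2 CPM among 10563 genes. The points share 6 groups of 3, so the values mostly follow group means. For Pdgfa they were Etv4 (r = 0.986), Sh3kbp1 (0.982) and Acsbg1 (0.980), and Etv4, an ETS transcription factor, averaged 7.54 CPM in unstimulated and 117.7 CPM in FGF2-treated naive cells. Pdgfb was followed by Ryk (0.966), Frmd6 (0.963) and Kctd11 (0.958), and Pdgfc by Mylk (0.930), Tns1 (0.907) and En1 (0.890). Nearest to Pdgfd were Ikbip (0.965), Mybl1 (0.938) and Msmo1 (0.936). Pdgfra had Fbxo31 (0.984), Zer1 (0.982) and Acadm (0.982). Pdgfrb had the closest neighbours of the 6, Ccdc80 (0.997), Itga11 (0.995) and Slc24a3 (0.994), and Ccdc80, a secreted matrix protein, averaged 1650 CPM in unstimulated and 105.6 CPM in FGF2-treated naive cells. Among the members themselves r ran from -0.849 (Pdgfa with Pdgfrb) to 0.745 (Pdgfb with Pdgfrb).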

How the data were processed

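RNA of 18 libraries of sorted synovial fibroblasts was measured. The authors deposited whole-number counts per gene; STAR and featureCounts on GRCm38 (mm10) are named in the submitters' processing notes, while tool versions, annotation and strand setting were not given in the sources used here. For TPM, computed from the counts, the deposited Length column of summed exon bases per gene was used. Of 32285 identifiers 32158 had a symbol in GENCODE M21, and the other 127 held 0.0294% of counts. No columns of other samples were present.

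Genes were kept by filterByExpr (15072 of 24146 with counts). A quasi-likelihood model with 1 mean per group was fitted in edgeR 4.0.16 (R 4.3.3) over all 18 libraries with TMM scaling. The 9 contrasts were tested two-sided at a Benjamini-Hochberg adjusted p below 0.05 over all genes, and the SE was the log2 fold change over the square root of F. The spread between libraries corresponded to a biological coefficient of variation of 7.99%. A floor of 3 counts equals 0.0743 to 0.109 CPM per library and covers counting error only. The code was tested on simulated data. Alternatives used DESeq2 1.42.0, limma 3.58.1, other scalings and filters, a replicate block, and each replicate left out.

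The members and lists were chosen with earlier results of these data known. All 6 members are named in every comparison. From each other list up to 3 genes are named, those with the largest absolute change among genes that passed the test with a mean of at least 5 CPM. The 3 genes most correlated with each member are named as a description. Ppbp, Itga2b, Rgs5 and other markers were named after their values were seen. No pair of replicates was identical, with chi-square per degree of freedom of 4.42 to 40.7 over 18 pairs.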

Additional observations from a re-analysis of the deposited data

Results flagged for a closer look

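The effect of OPN differed between STIA and naive cells, by the contrast of both effects in the edgeR model, for 5 members and several named pathway genes. All differences here are on the log2 scale, STIA less naive. Among the members they were -0.37 for Pdgfa, 1.45 for Pdgfb, -0.42 for Pdgfc, -0.93 for Pdgfd and 1.13 for Pdgfra. For processing and binding genes they were 1.60 for Plau, 1.23 for Pcsk5 and 0.43 for Lrp1, an endocytic receptor. For transducers they were 0.61 for Stat5a, -0.47 for Pik3cb and 0.46 for Gab1, an adaptor. For restraining genes they were 0.74 for Slc9a3r1, 0.61 for Ptpn1 and -0.48 for Cav1. For early genes they were 3.61 for Fos, 3.25 for Fosb and 3.12 for Cxcl1, and for the related ligand Vegfa the difference was 0.62. The log2 ratio of Pdgfra to Pdgfrb was lower in every OPN-treated naive library and higher in every OPN-treated STIA library than in all untreated ones of the same origin, a difference of 1.18 between the effects that was not tested.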

How the results depend on the processing

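Over the 6 members and 9 comparisons, 472 of 486 results under single other settings kept direction and call, 5 gained a call, 4 lost one and 5 turned sign. With 1 replicate left out 375 of 396 kept both, 13 lost a call and 8 turned sign. Every result that turned sign had not passed the test: Pdgfd with both factors against unstimulated cells (0.12 with library totals alone, 0.0055 with upper quartile scaling, 0.0084 with a minimum of 5 CPM, and -0.105 to 0.043 over the leave-outs), Pdgfb in STIA against naive cells (-0.016 with upper quartile scaling, -0.034 with limma-voom, and -0.14 to 0.19 over the leave-outs), and, for both factors against OPN over the leave-outs, Pdgfb (-0.095 to 0.27) and Pdgfc (-0.044 to 0.069). Positive values of Pdgfd came without unstimulated naive replicate 1 or replicate 3 of both factors. Negative ones of Pdgfb in STIA cells came without STIA replicates 2 or 3 or unstimulated naive replicate 2. Negative ones against OPN came without OPN replicate 3 or, for Pdgfc, replicate 1 of both factors. The cause was not tested.

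The count of genes that passed for OPN in STIA cells, 327, depended most on the settings: 948 with no filter, 1367 with only the groups of the contrast, 626 with DESeq2, and 38 to 218 with 1 library left out (38 without STIA replicate 1, 81 without STIA replicate 2, and 76, 44 and 112 without OPN-treated STIA replicates 1, 2 and 3). The cause was not tested. The receptor ratio kept its direction in every leave-out except for both factors against FGF2, where it ran from -0.06 to 0.19. Leaving out 1 replicate gave 7956 to 8373 genes for FGF2, 3619 to 4184 for OPN, 6571 to 7510 for both factors, 4416 to 4886 for STIA, 8025 to 8760 for both against FGF2, 7690 to 8345 for both against OPN, 7104 to 7911 for the interaction and 2650 to 3280 for the difference of OPN effects. Library totals alone moved the split of calls for both factors against unstimulated cells from 3573 higher and 3940 lower to 5253 and 2414, with the median of all genes moved by 0.14. Against OPN it moved from 4079 and 4443 to 5433 and 3060, with the median moved by 0.13.

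Shares of ligand counts without length correction were, for unstimulated naive, FGF2, OPN, both, STIA and OPN-treated STIA cells in that order, 20.6%, 50.3%, 17.2%, 25.1%, 24.4% and 22.5% for Pdgfa, 46.1%, 26.4%, 44.2%, 49.1%, 46.6% and 47.7% for Pdgfc, and 28.0%, 22.4%, 36.7%, 23.5%, 25.6% and 24.8% for Pdgfd; Pdgfb with both factors was 2.28%. By counts Pdgfc, not Pdgfd, was the largest with OPN.

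Same-numbered replicates showed little shared deviation from their group means (r from -0.104 to 0.199, with 2 of 45 pairs above 0.1). Each mean rests on only 3 libraries and the deviations include counting error. The values therefore cannot tell whether same-numbered replicates share a mouse, culture or batch. A replicate block gave 8509 genes for FGF2 and 292 for OPN in STIA cells, and of the member calls it removed that of the Pdgfc interaction alone. Depth limits Pdgfb most.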

Other observations

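Relatives of the PDGF genes were read beside them. Of 5 VEGF family ligand genes, which share the fold of PDGF, 4 rose and 1 fell with FGF2 in naive cells, where 29.1% of all genes rose and 28.1% fell. Pgf, placenta growth factor, rose by 1.24 ± 0.15 and Vegfa by 0.94 ± 0.05, while Vegfd fell by 1.34 ± 0.11 on the log2 scale. With both factors 4 of the 5 rose and none fell (23.7% and 26.1% of all genes), Vegfd (0.79 ± 0.10), Vegfb (0.72 ± 0.07) and Vegfc (0.69 ± 0.13) the most among genes of at least 5 CPM. In OPN-treated naive cells Vegfa alone of the 5 passed (31.7% of all genes), at -0.62 ± 0.05. In STIA cells 3 rose and 2 fell (18.6% and 18.2% of all genes), with Vegfc at 0.72 ± 0.14 and Vegfd at -0.63 ± 0.10.

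Of 6 related receptor tyrosine kinase genes 5 were tested, and Flt3 was too low to be tested. With FGF2 3 rose and 1 fell, against the shares of all genes given for FGF2. Kdr, a VEGF receptor, rose by 3.14 ± 0.21 and Flt4 by 1.60 ± 0.17. Kdr averaged 1.03 CPM without and 9.08 CPM with FGF2, and Flt4 10.0 and 30.4 CPM. With both factors they averaged 0.686 and 7.98 CPM, lower than with FGF2 alone by the test (log2 fold changes -3.73 ± 0.22 and -1.93 ± 0.17). Against unstimulated cells 1 of the 5 rose and 1 fell with both factors (23.7% and 26.1% of all genes). In STIA cells 3 of the 5 rose and none fell, against the shares of all genes given for STIA, with Flt4 at 0.56 ± 0.17.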
